A study of Mus musculus with 10 samples.

Results

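Nr4a1, Nr4a2 and Nr4a3 encode the nuclear receptors Nur77, Nurr1 and Nor-1, and their transcripts were followed in the tibialis anterior, a fast muscle of the lower hind limb. They were picked out by gene symbol, are 3 of the 13492 genes in the deposited table, and all 3 passed the expression minimum of a mean log2 CPM of 0 (CPM, counts scaled to library size). The table holds 5 libraries labelled Lrtm1 KO and 5 labelled Lrtm1 WT. The WT mice are floxed controls, and all mice were on a C57BL/6 background, aged 6 months and fasted for 3 h. Each genotype is present in litters 108, 110 and 112. Not given in the sources used here are the Cre driver, the deleted part of Lrtm1 and the sex of the mice. For group size the labels were followed, since the design text states 4 libraries each.

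The labels do not bear a check by the targeted gene. Lrtm1, which encodes a leucine-rich repeat membrane protein, was higher in the libraries labelled KO (6.12 ± 0.10 log2 CPM, SD, n = 5) than in those labelled WT (5.68 ± 0.07, SD, n = 5). The difference was 0.44 (SE 0.07; limma adjusted p = 0.0344), and with 1 library left out at a time it kept the threshold only without KO replicate 4 or WT replicate 4 (limma adjusted p from 0.0169 to 0.639). Therefore every direction given here is between libraries as labelled. Markers of muscle fibres were abundant in both groups, with sums of 11 marker genes from 132591 to 136995 CPM in libraries labelled KO and from 120811 to 137872 CPM in libraries labelled WT. In whole muscle, fewer cells of a type and less RNA per cell cannot be told apart. The values had been adjusted before deposit with genotype kept. Litter and 3 further terms were found to be gone from them, so SDs among libraries are smaller than those of unadjusted values, and the overlap of those terms with genotype is unknown.

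NR4A receptors are orphan members of the nuclear receptor family whose activity follows mainly from how much of them is made. They are immediate early genes: their transcription rises quickly and briefly after cyclic AMP, calcium or stress signals, through CREB and related factors, and in skeletal muscle after exercise and beta adrenergic stimulation. Nur77 and Nor-1 have been tied to glucose and fatty acid use in muscle, and Nurr1 is best known from dopamine neurons.

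The genes lie on separate chromosomes. In GENCODE M21 on GRCm38, Nr4a3 (ENSMUSG00000028341) spans 48045153 to 48086447 on the plus strand of chromosome 4, Nr4a1 (ENSMUSG00000023034) spans 101254269 to 101274795 on the plus strand of chromosome 15, and Nr4a2 (ENSMUSG00000026826) spans 57106830 to 57124003 on the minus strand of chromosome 2. The 250 bases before a RefSeq start of each gene (GRCm38.p6) are shown because CREB is the best known inducer of the family. They are chr4:48045055-48045304 (plus strand), chr15:101266596-101266845 (plus strand) and chr2:57124004-57124253 (minus strand), written 5′ to 3′ with each TGACG, the core of the cAMP response element to which CREB binds, or its reverse complement CGTCA, in capitals.
Nr4a3 promoter: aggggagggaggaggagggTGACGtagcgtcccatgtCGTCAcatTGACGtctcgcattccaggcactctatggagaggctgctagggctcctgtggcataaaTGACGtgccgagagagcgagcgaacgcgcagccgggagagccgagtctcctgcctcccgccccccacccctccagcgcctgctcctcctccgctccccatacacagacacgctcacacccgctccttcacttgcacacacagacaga
Nr4a1 promoter: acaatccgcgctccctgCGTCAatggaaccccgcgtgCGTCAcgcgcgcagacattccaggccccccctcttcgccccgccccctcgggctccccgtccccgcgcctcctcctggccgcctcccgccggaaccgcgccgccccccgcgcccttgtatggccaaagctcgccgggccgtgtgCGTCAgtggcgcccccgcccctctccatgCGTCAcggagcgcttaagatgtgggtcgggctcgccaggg
Nr4a2 promoter: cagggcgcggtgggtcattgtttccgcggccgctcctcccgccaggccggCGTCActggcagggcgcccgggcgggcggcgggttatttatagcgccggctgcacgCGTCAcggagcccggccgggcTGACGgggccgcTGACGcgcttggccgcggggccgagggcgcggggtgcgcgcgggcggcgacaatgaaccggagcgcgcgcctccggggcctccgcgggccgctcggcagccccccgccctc
Each promoter held 4 of these cores, with their first bases at -231, -213, -205 and -147 from the start in Nr4a3, at -233, -213, -69 and -40 in Nr4a1, and at -200, -144, -123 and -111 in Nr4a2. Across 32851 mouse promoter windows of the same length, 17.8% held at least 1 core on either strand and 0.137% held at least 4. The core contains CG and these windows are rich in G and C, at 63.6% in Nr4a3, 74.4% in Nr4a1 and 80.0% in Nr4a2, against a median of 52.4%. Among the 6582 windows at least as rich as that of Nr4a3, 0.380% held 4 or more. The full element TGACGTCA, in which 2 cores overlap, was in none of the 3 windows and in 1.55% of all windows. AAAGGTCA, the NGFI-B response element to which NR4A receptors bind as single molecules, was likewise in none of the 3 and in 1.34% of all windows, searched on both strands. These are matches of letters and not measured binding. The annotated Nr4a3 gene begins inside its window, at 48045153, and the Nr4a1 window lies wholly inside the annotated gene, which begins upstream of it at 101254269.

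The family was chosen with the genotype contrast in view, above all the large difference in Nr4a3, so the levels and differences of its members are given as a description with no test. Nr4a3, which encodes the exercise-induced receptor Nor-1, stood at 5.80, 5.26, 5.02, 5.33 and 6.41 log2 CPM in libraries labelled KO replicates 1 to 5. It stood at 3.20, 2.56, 4.25, 2.86 and 2.80 log2 CPM in libraries labelled WT replicates 1, 3, 4, 5 and 6. Each library labelled KO lay above each labelled WT, with WT replicate 4 the highest of the controls by over 1 log2 unit and 0.77 below the lowest library labelled KO. The means were 5.56 ± 0.55 against 3.14 ± 0.67 log2 CPM (SD, n = 5 each), or 50.3 ± 21.1 against 9.68 ± 5.39 CPM. The log2 difference, KO minus WT, was 2.43 (SE 0.35), a 5.38-fold higher level. It ranked 3 among the 12223 genes tested, after the pseudogene Morf4l1-ps1 (3.14, SE 1.10) and B3gnt2 (2.55, SE 0.76), which are both less abundant. By level, the gene stood between the percentiles 77.1 and 91.1 of all genes in libraries labelled KO, against 37.8 and 65.1 in those labelled WT.

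Nr4a1, which encodes Nur77, was the abundant member and differed less. It stood at 8.09, 7.95, 7.79, 7.73 and 8.32 log2 CPM in libraries labelled KO replicates 1 to 5, and at 7.41, 7.39, 7.79, 7.21 and 7.68 log2 CPM in libraries labelled WT replicates 1, 3, 4, 5 and 6. The groups overlapped, because WT replicate 4 lay 0.05 above KO replicate 4. The means were 7.98 ± 0.24 against 7.49 ± 0.23 log2 CPM (SD, n = 5 each), a log2 difference of 0.48 (SE 0.14) or 1.40-fold. In CPM the difference of Nr4a1 was larger than that of Nr4a3. Nr4a1 had 254.8 ± 43.0 against 182.2 ± 29.7 CPM, a difference of 72.6 CPM, where Nr4a3 differed by 40.6 CPM.

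Nr4a2, which encodes Nurr1, was near the expression minimum. It stood at 0.64, 0.64, 0.67, 0.73 and 0.62 log2 CPM in libraries labelled KO replicates 1 to 5, against 0.20, 0.14, 0.16, 0.22 and 0.06 log2 CPM in libraries labelled WT replicates 1, 3, 4, 5 and 6. The groups were separate and each was tight, in contrast to Nr4a3. The means were 0.66 ± 0.04 against 0.16 ± 0.06 log2 CPM (SD, n = 5 each), a log2 difference of 0.50 that is 1.42-fold, from 1.58 ± 0.05 against 1.12 ± 0.05 CPM. The SE was 0.18 in the fit that allows for the removed terms, and 0.08 with genotype and litter alone. Both fits allow for how genes of that level vary. On a log2(CPM + 1) scale the difference was 0.29, since the added count weighs on so low a level.

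**Figure D1:**
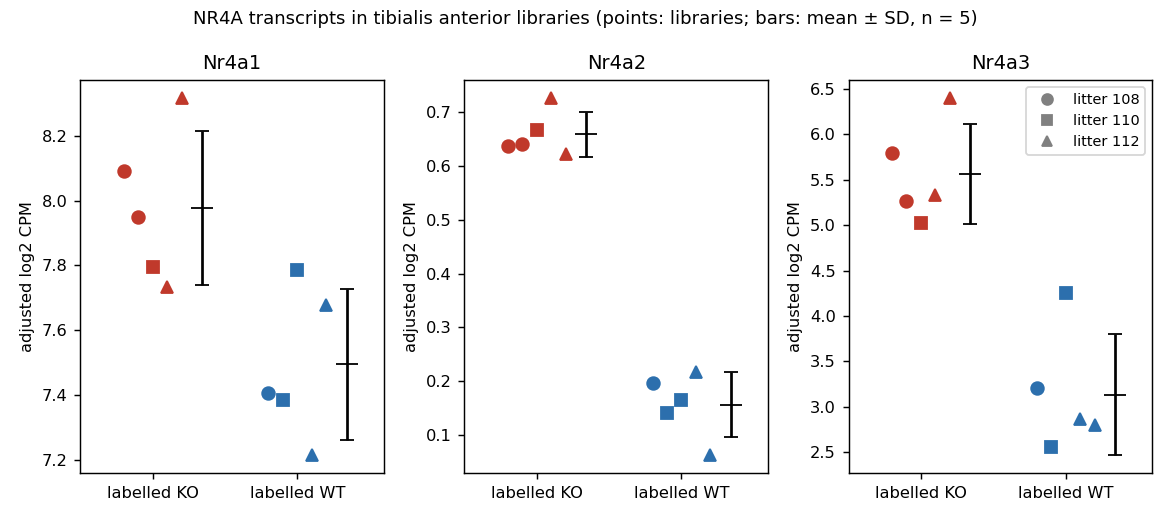
Adjusted log2 CPM (vertical axes, a separate scale for each gene) of Nr4a1, Nr4a2 and Nr4a3 in 5 libraries labelled KO (red, left) and 5 labelled WT (blue, right), with the marker showing the litter and the bar the mean and SD. For Nr4a2 and Nr4a3 the groups are separate, while WT replicate 4 lies among the libraries labelled KO for Nr4a1 and is the highest control for Nr4a3.

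Groups that do not overlap were common in this table, at 16.2% of all genes tested, with 8.56% having every library labelled KO above every library labelled WT, as 2 of the 3 receptors did, and 7.63% the reverse. The contrast chose the family, so nothing is read from that count. A difference as high as that of Nr4a1 was seen in 1.06% of genes and as high as that of Nr4a2 in 0.941%. An SD among libraries labelled KO as large as that of Nr4a3 was seen in 0.213% of genes, and among those labelled WT in 0.180%. For Nr4a1 these shares were 3.88% and 7.35%, and for Nr4a2 they were 74.2% and 70.6%. By this measure Nr4a3 was among the genes that varied most between libraries of the same label.

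Litters gave the same direction with different sizes. Litter 108 holds 2 libraries labelled KO and 1 labelled WT, litter 110 holds 1 and 2, and litter 112 holds 2 and 2. Libraries of litter 108 differed by 2.33 log2 units in Nr4a3, those of litter 110, to which WT replicate 4 belongs, by 1.62, and those of litter 112 by 3.04. The values of litter 110 rest on KO replicate 3 alone on the KO side, and those of litter 108 on WT replicate 1 alone on the WT side. The Nr4a1 difference was 0.62, 0.21 and 0.58 in the same order, and for Nr4a2 0.44, 0.51 and 0.53. Litter 110 thus had the smallest difference for Nr4a3 and for Nr4a1 but not for Nr4a2. With 1 library left out at a time, and genotype and litter alone in the fit, the difference ran from 2.15 to 2.75 for Nr4a3. It ran from 0.37 to 0.59 for Nr4a1 and from 0.47 to 0.53 for Nr4a2. Fits of other genes without 1 library also held the 3 removed terms, so the receptors' ranges are not comparable with theirs. Leaving out KO replicate 5 gave the lowest value for Nr4a3 and for Nr4a1, and leaving out KO replicate 3 the highest. Without KO replicate 3, litter 110 holds no library labelled KO, so that value rests on litters 108 and 112 alone. Without WT replicate 1, litter 108 likewise adds nothing to the difference.

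**Figure D2:**
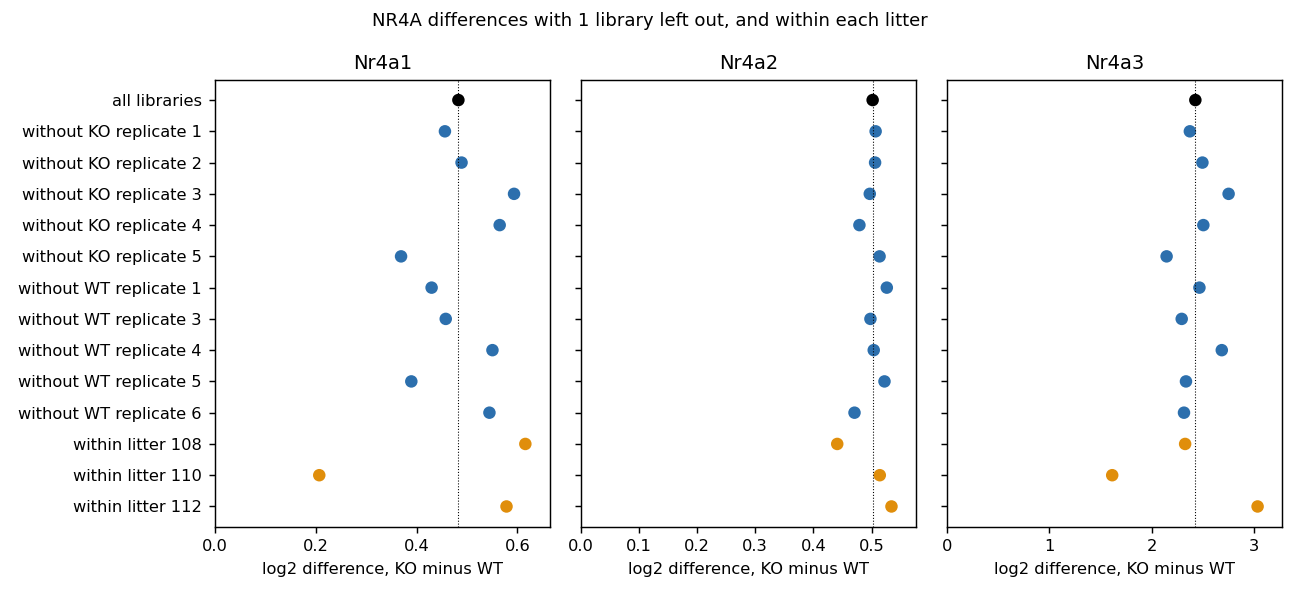
Log2 difference, KO minus WT (horizontal axes, a separate scale for each gene, from 0), over all libraries (black), without 1 library (blue, genotype and litter alone in the fit) and within each litter (orange). All values lie above 0, and the widest departures are in litter 110 for Nr4a1 (0.21) and Nr4a3 (1.62).

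To compare levels between genes, CPM were divided by the length in kb of each gene's longest annotated transcript, although muscle may use another. On that scale Nur77 made up nearly all NR4A transcript. Nr4a1 had 99.8 ± 16.8 CPM per kb in libraries labelled KO and 71.4 ± 11.6 in those labelled WT (SD, n = 5 each). Nr4a3 had 8.79 ± 3.68 against 1.69 ± 0.94 CPM per kb and Nr4a2 had 0.44 ± 0.01 against 0.31 ± 0.01. The share of Nr4a3 in the family's sum was 6.10% to 10.6% in libraries labelled KO, against 1.49% to 3.70% in those labelled WT, while that of Nr4a1 was 89.1% to 93.4% against 96.0% to 98.2%. The sum of the 3 was 109.0 ± 20.3 CPM per kb in libraries labelled KO and 73.4 ± 12.3 in those labelled WT, and WT replicate 4 (90.2) all but reached the lowest library labelled KO (90.8).

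Set among 32 nuclear receptor genes that passed the expression minimum, Nr4a1 had the highest level per kb in both groups. In libraries labelled KO, its lowest value (83.3 CPM per kb) was above the highest value (60.1) of Rxra, which was next in order and encodes a retinoid X receptor with which Nur77 and Nurr1 can pair. In libraries labelled WT the lowest Nr4a1 value was 58.2 and the highest Rxra value 55.0. Nr4a3 ranked 12 of 32 in libraries labelled KO and 28 of 32 in those labelled WT, and in both places its neighbours lay within its spread. These were Nr3c1, the glucocorticoid receptor gene (10.9 ± 0.40 CPM per kb), and Ppard (7.92 ± 0.12) in libraries labelled KO, and Esrrb (1.96 ± 0.28) and Rara (1.61 ± 0.14) in those labelled WT. Nr4a2 was the lowest in both groups, below Nr6a1 (1.22 ± 0.09 against 1.06 ± 0.07 CPM per kb).

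**Figure D3:**
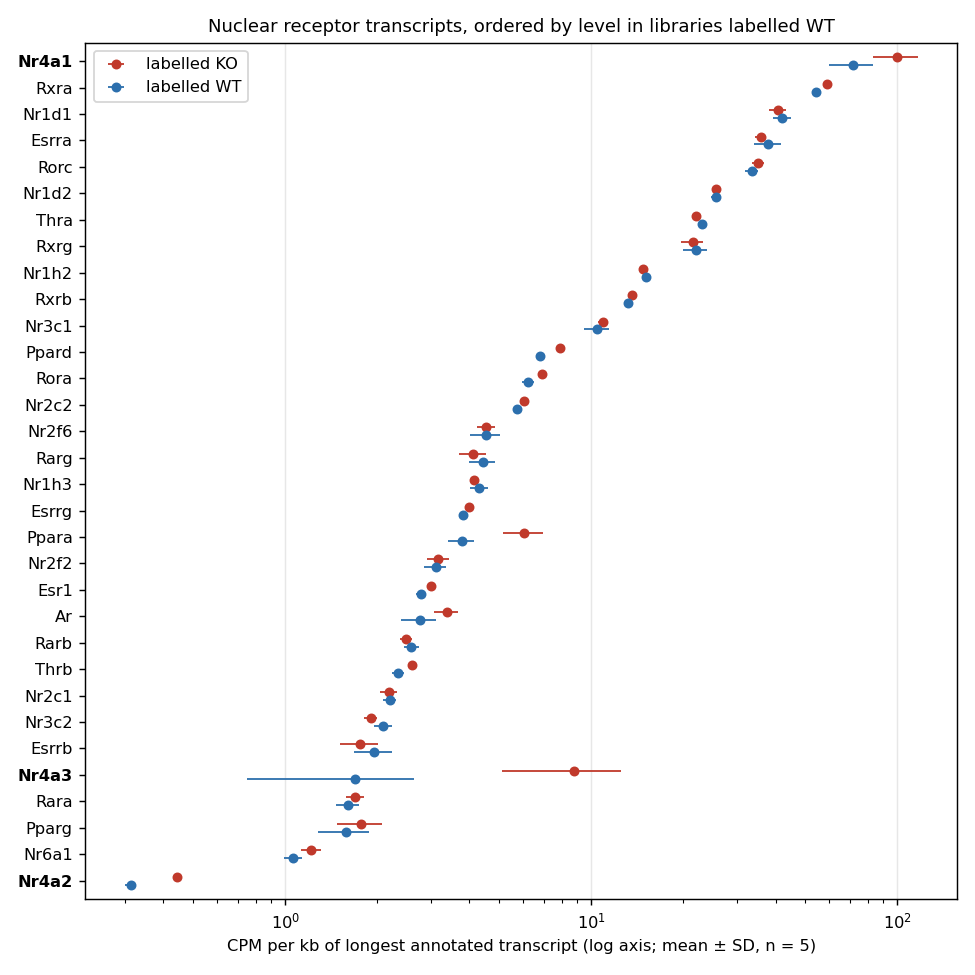
Level of 32 nuclear receptor transcripts in CPM per kb of the longest annotated transcript (horizontal log axis; points are means and lines SDs of 5 libraries) in libraries labelled KO (red, above) and WT (blue, below), ordered by the WT level. Nr4a1 is at the top in both groups and Nr4a2 at the bottom. On the log axis, which shows ratios, Nr4a3 is the gene with the widest distance between the groups, 8.79 against 1.69 CPM per kb.

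Of the 29 other nuclear receptors tested, none passed the threshold in limma, where 0.270% of all genes tested rose and 0.0655% fell at an adjusted p of 0.05. Their log2 differences ran from -0.15 to 0.67, with a median of 0.04 against -0.0041 over all genes tested. At an unadjusted p of at most 0.05 in limma, 5 of the 29 were higher and 0 lower, where 6.25% of all genes tested were higher and 3.83% lower, shares that also stand behind the unadjusted counts of the lists that follow. Ppara, the fatty acid sensor of the family, came closest at 0.67 (SE 0.13; limma adjusted p = 0.0670), with levels of 4.35 ± 0.23 against 3.68 ± 0.14 log2 CPM (SD, n = 5 each). It passed without KO replicate 1 (limma adjusted p = 0.0494) or KO replicate 4 (limma adjusted p = 0.00462). Without WT replicate 1 its estimate was 0.33 (limma adjusted p = 0.841) in the fit with the removed terms. That estimate is not the difference between the means of the libraries left. Ppard, which also drives fatty acid oxidation in muscle, differed by 0.22 (SE 0.06; limma adjusted p = 0.242). With genotype and litter alone in the fit, a setting that calls 8.62% of all genes (5.15% higher and 3.48% lower), 4 of the 29 were past the threshold, all higher, Ppara and Ppard among them.

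How the receptors moved together could be described only within the groups, since the groups are separate for Nr4a3 and hold 5 libraries each. KO replicate 5 was the highest of its group for Nr4a1 and for Nr4a3, at 0.34 and 0.84 log2 units above the group mean, and KO replicate 1 was next for both. WT replicate 4 was the highest of its group for both, at 0.29 and 1.12 above the mean. The others were less alike: WT replicate 6 was above its group's mean for Nr4a1 (0.18) and below it for Nr4a3 (-0.33). Over the 10 libraries, centred by genotype, Pearson's r between Nr4a1 and Nr4a3 was 0.77, and 0.34 over the 8 libraries left without KO replicate 5 and WT replicate 4, so it rests on those libraries. After the authors' adjustment the centred values have only 3 free dimensions, and 13.3% of all genes tested were at least as like Nr4a1 as Nr4a3 was. Nr4a2 did not go with the other members, with r of -0.68 to Nr4a1 and -0.06 to Nr4a3. The r to Nr4a3 was -0.56 within libraries labelled KO and 0.22 within those labelled WT. Of all genes tested, 82.4% were at least as like Nr4a1 as Nr4a2 was, and 53.0% at least as like Nr4a3.

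**Figure D4:**
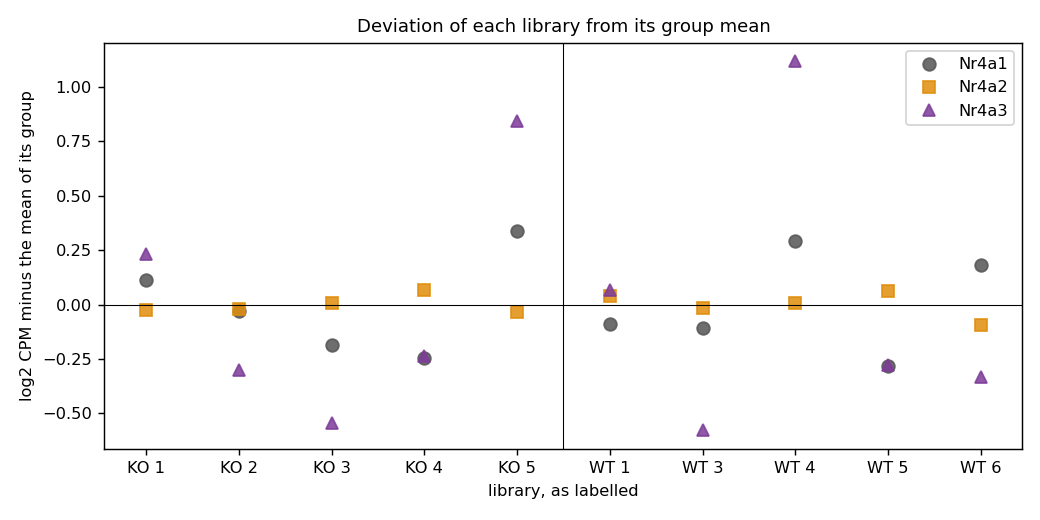
Log2 CPM of Nr4a1 (grey circles), Nr4a2 (orange squares) and Nr4a3 (purple triangles) minus the mean of its group (vertical axis), for each library labelled KO (left) and WT (right). Nr4a1 and Nr4a3 are both farthest above their group means in KO replicate 5 (0.34 and 0.84) and WT replicate 4 (0.29 and 1.12), while the farthest Nr4a2 value lies 0.09 below its mean.

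The genes with patterns most like each receptor over the 10 libraries, centred by genotype, included Lig3 and Rab3d for Nr4a1, C1d, Agpat5 and Ptp4a2 for Nr4a2, and Nup107, Kctd20 and Fmo1 for Nr4a3, each with r of at least 0.999. With so few free dimensions such values are common: 5.95% of genes tested had r above 0.9 with Nr4a1, 5.90% with Nr4a2 and 4.81% with Nr4a3.

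Upstream of the family, genes of beta adrenergic and cyclic AMP signalling did not pass the threshold. None of 36 tested rose or fell in limma at the adjusted threshold (10 were higher and 0 lower at an unadjusted p of at most 0.05, against 6.25% and 3.83% of all genes), and the median log2 difference was 0.05. Sik1, a salt-inducible kinase gene that is itself a target of CREB and that restrains CREB's coactivators, came closest, at 4.18 ± 0.14 against 3.64 ± 0.15 log2 CPM (SD, n = 5 each), a difference of 0.54 (SE 0.11; limma adjusted p = 0.0753), and passed without WT replicate 4 (limma adjusted p = 0.0380; up to 0.784 without another library). Adcy2, an adenylyl cyclase gene, was next at 0.24 (SE 0.06; limma adjusted p = 0.157). With genotype and litter alone, 8 of the 36 were higher, among them Sik1, Sik2, Sik3 and the phosphodiesterase genes Pde4a, Pde4d and Pde7a, which break down cyclic AMP, and 1 was lower, Atf1, a relative of CREB. That setting called 5.15% of all genes higher and 3.48% lower. None of 26 genes of calcium, calcineurin and MEF2 signalling passed in limma (median 0.01), with 2 higher at an unadjusted p of at most 0.05, a share near that of all genes, and the closest were Nfatc1, a calcineurin-responsive factor (0.22, limma adjusted p = 0.281), and Cabin1 (0.19, limma adjusted p = 0.487).

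Genes induced by the same signals lay mostly above 0, with 1 past the threshold. Of 20 tested genes that CREB induces, other than the receptors, Irs2 rose, none fell and 19 did not pass. Their median log2 difference was 0.24. At the adjusted threshold 0.270% of all genes tested rose and 0.0655% fell. At an unadjusted p of at most 0.05 in limma, 10 of the 20 were higher and 0 lower, against 6.25% and 3.83% of all genes. With genotype and litter alone, 6 were called higher, against 5.15% of all genes. Irs2, the insulin receptor substrate 2 adaptor, stood at 5.70, 5.45, 5.36, 5.23 and 5.87 log2 CPM in libraries labelled KO replicates 1 to 5, against 4.12, 4.05, 4.56, 4.09 and 4.30 in libraries labelled WT replicates 1, 3, 4, 5 and 6. It was highest in KO replicate 5 and WT replicate 4, the libraries where Nr4a1 and Nr4a3 were highest. Over all genes tested, the deviations of those libraries from their group means had a Pearson's r of 0.85. A shared peak there is therefore not particular to Irs2. The difference of 1.30 (SE 0.15; limma adjusted p = 0.00665) fell short of the threshold without WT replicate 1 (limma adjusted p = 0.218) or WT replicate 6 (limma adjusted p = 0.106).

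Of 22 other immediate early genes tested, none passed in limma, and 5 were higher and 0 lower at an unadjusted p of at most 0.05, against 6.25% and 3.83% of all genes. Their median was 0.13, with 15 above 0 and 7 below. Maff, a small Maf factor, was at 1.37 ± 0.09 against 0.72 ± 0.14 log2 CPM (SD, n = 5 each), a difference of 0.65 (SE 0.16; limma adjusted p = 0.185), and Klf4 differed by 0.35 (SE 0.10; limma adjusted p = 0.249). In the list of genes induced in muscle by acute exercise, 2 of 24 rose, Irs2 and Vegfa, none fell and 22 did not pass. The list's median was 0.32. At the adjusted threshold 0.270% of all genes tested rose and 0.0655% fell. Of the 24, 11 were higher and 1 lower at an unadjusted p of at most 0.05 in limma, against 6.25% and 3.83% of all genes. With genotype and litter alone, 8 were called higher, against 5.15% of all genes. Vegfa, the angiogenic growth factor, stood at 8.10 ± 0.05 against 7.78 ± 0.04 log2 CPM (SD, n = 5 each), with a difference of 0.33 (SE 0.06; limma adjusted p = 0.0418). It kept the threshold only without WT replicate 4 (limma adjusted p = 0.0447) when 1 library was left out at a time. Lists in this paragraph and the last share genes, and Irs2 and Vegfa were known to differ when they were written.

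**Figure D5:**
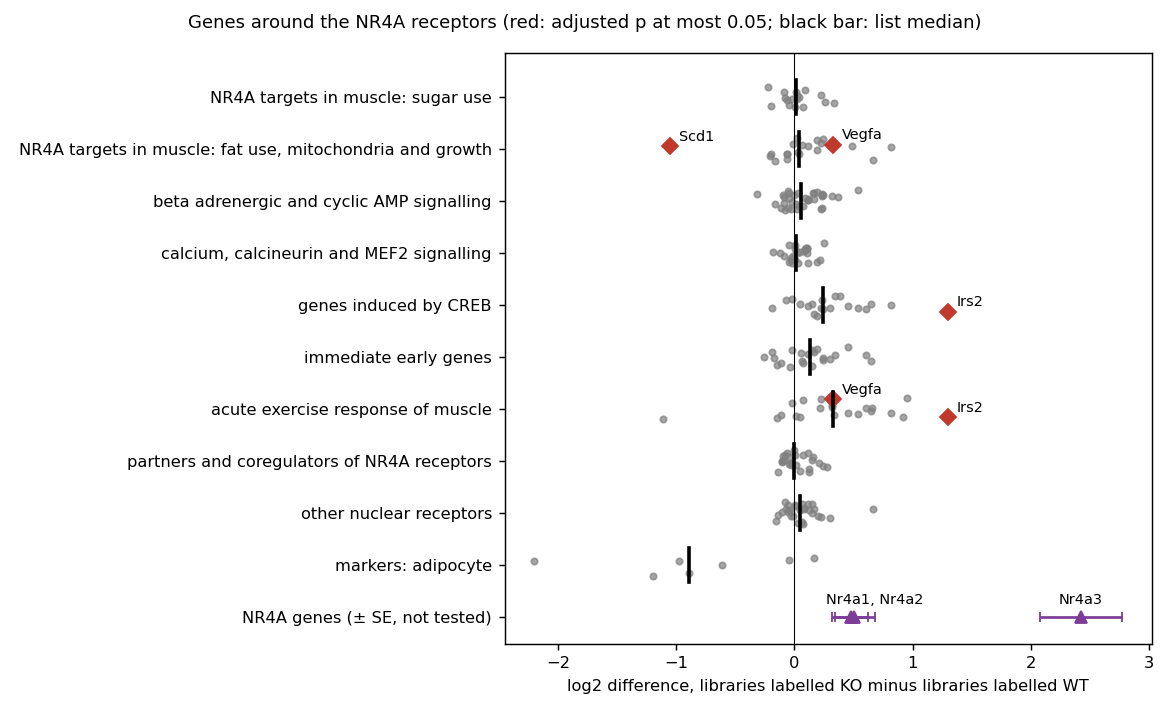
Log2 difference, KO minus WT (horizontal axis), of each tested gene in 9 lists around the NR4A receptors and in the adipocyte markers, with genes past an adjusted p of 0.05 in red and the list median as a black bar. The NR4A genes in the last line carry their SE and no test. Irs2, Vegfa and Scd1 are the genes past the threshold, and the medians of the CREB-induced and exercise lists are 0.24 and 0.32.

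Among genes that NR4A receptors have been tied to in muscle, Vegfa and Scd1 were past the threshold. None of 17 genes of sugar use passed in limma (median 0.01; 2 higher and 1 lower at an unadjusted p of at most 0.05, against 6.25% and 3.83% of all genes). Pdp1, a pyruvate dehydrogenase phosphatase gene, differed by -0.22 (SE 0.05; limma adjusted p = 0.176) and the hexokinase gene Hk2 by 0.33 (SE 0.09; limma adjusted p = 0.208). In fits that kept the removed terms, the Hk2 estimate was 0.09 without KO replicate 3 and 0.16 without WT replicate 1. These estimates are not the differences between the means of the libraries left. Among 21 genes of fat use, mitochondria and growth, Vegfa rose and Scd1 fell (median 0.04), where 0.270% of all genes rose and 0.0655% fell. At an unadjusted p of at most 0.05 in limma, 6 were higher and 2 lower, against 6.25% and 3.83% of all genes. With genotype and litter alone, 5 were called higher and 2 lower, against 5.15% and 3.48% of all genes. Scd1, which desaturates stearoyl-CoA, stood at 5.16 ± 0.20 against 6.22 ± 0.29 log2 CPM (SD, n = 5 each), a difference of -1.06 (SE 0.15; limma adjusted p = 0.0245), and lost the threshold without KO replicates 2, 3 or 4 or WT replicates 1 or 6 (limma adjusted p from 0.0557 to 0.419). Of 25 partners and coregulators of the receptors, none passed in limma (median -0.01; 6 higher and 0 lower at an unadjusted p of at most 0.05, against 6.25% and 3.83% of all genes). The coactivator gene Ncoa2 differed by 0.21 (SE 0.07; limma adjusted p = 0.306).

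Summed markers of 1 other cell type, adipocytes, did not overlap between the labels. Among genes taken one by one, 16.2% of all tested had groups that do not overlap, with KO below in 7.63%. The summed level of 8 adipocyte markers was 71.9 to 83.1 CPM (median 75.6) in libraries labelled KO, against 83.2 to 99.9 CPM (median 87.4) in libraries labelled WT. The ranges all but met, at 83.10 CPM in KO replicate 5 and 83.16 CPM in WT replicate 3. Of the 7 markers tested, 6 had a difference below 0 and 1, Pparg, above it (0.16). The median log2 difference of the 7 tested was -0.89, and none passed in limma. At an unadjusted p of at most 0.05 in limma, 5 were lower, against 3.83% of all genes. With genotype and litter alone, 4 were called lower, against 3.48% of all genes. Closest were Lep, the leptin gene, at -2.21 (limma adjusted p = 0.0642) and Cidec, a lipid droplet gene, at -1.20 (limma adjusted p = 0.121). Both were low, at means of -0.60 and -0.08 log2 CPM in libraries labelled KO, against 1.61 and 1.12 in those labelled WT. They therefore add little to the sum, in which more abundant markers weigh most. Lep passed without KO replicates 1 or 5 or WT replicates 3 or 4 (limma adjusted p from 0.00165 to 0.0377). Without KO replicate 2 its estimate was -1.32 (limma adjusted p = 0.462) in the fit with the removed terms. That estimate is not the difference between the means of the libraries left. Within each group the sum was highest in the library where Nr4a1 and Nr4a3 were highest, at 83.1 CPM in KO replicate 5 and 99.9 CPM in WT replicate 4. These libraries deviated alike over all genes tested (Pearson's r of 0.85), so a shared peak is not particular to these markers. The part of adipocyte RNA in the NR4A values was not tested. Sums of endothelial markers (290.9 to 302.2 against 283.4 to 305.7 CPM) and macrophage markers (70.4 to 76.5 against 71.5 to 78.9 CPM), cell types that also make Nr4a1, overlapped between the groups, and 1 of 9 lymphocyte and neutrophil markers was in the table. No marker passed in limma in these lists or in those for muscle fibres, fibroblasts, smooth muscle, Schwann cells, satellite cells, tendon and red blood cells, and none was called with genotype and litter alone. At an unadjusted p of at most 0.05, 1 of 6 tendon and 1 of 5 red blood cell markers were lower, against 3.83% of all genes. The markers named from each list, all far from the threshold, were Myh1 and Mb (muscle fibre), Kdr and Pecam1 (endothelium), Cd163 and Adgre1 (macrophage), Ptprc (leukocyte), Col1a2 and Dpt (fibroblast), Acta2 and Pdgfrb (smooth muscle and pericyte), Pmp22 (Schwann cell), Chodl and Myf5 (satellite cell), Fmod and Comp (tendon), and Hba-a2 and Hbb-bs (red blood cell). Their log2 differences ran from -0.41 for Comp to 0.18 for Myh1, with limma adjusted p from 0.400 to 0.976. Fmod passed without WT replicate 5 (limma adjusted p = 0.0104).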

How the data were processed

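Per the labels' protocols, TRIzol was used to extract tibialis anterior RNA, and the libraries are stranded and oligo-dT primed. The submitters' processing notes name fastp, kallisto and limma without versions; not given in the sources used here were build, annotation and use of strand. A single table of log2 CPM, already adjusted, was deposited by the authors. Converted back, its values sum to between 960166 and 1016398 CPM per library, so the base is 2. Read totals were not used here, so the depth and its precision are unknown.

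In the deposited log2 values no litter effect remained once genotype was fitted, and the residuals of all genes filled 3 of 6 dimensions, so 3 further terms, not given in the sources used here, had been removed. limma 3.58.1 in R 4.3.3 (lmFit, eBayes with a trend) was run two-sided on 12223 genes (mean log2 CPM 0 or more), with genotype, litter and the 3 terms, which leaves 3 residual degrees of freedom. Genes passed at an adjusted p of at most 0.05 (Benjamini-Hochberg over all genes tested). The labels do not say that libraries came from separate animals, so p-values measure the spread between libraries. Means and SDs were computed in Python 3.11.15. The fit was tested on simulated data.

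The members and lists were chosen with earlier results of these data known. Named genes are the receptors, Lrtm1, the 3 genes most like each receptor (mean log2 CPM 1 or more), and from each list, marker lists included, up to 4 members past the threshold or the 2 closest; genes that the rule names but that are missing from the text are not reported here. Genes named only for the fit on genotype and litter were chosen after their values were seen. Alternatives changed the terms, trend, filter, scale and centring, blocked on replicate number, and left out each library. For the receptors, the fits without 1 library held genotype and litter alone. The other fits without 1 library kept the 3 removed terms as found over all libraries. There the terms can take up part of the genotype difference, so an estimate need not equal the difference between the means of the libraries left. List genes were matched by Ensembl identifier through GENCODE M21 symbols.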

Additional observations from a re-analysis of the deposited data

Results flagged for a closer look

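In 1 library, WT replicate 5, 3 marker genes lay far from the other libraries labelled WT. Mb, the myoglobin gene, stood at 11.8 log2 CPM there, against 11.4 to 11.5 in the other libraries of its label. Fmod, a tendon marker, stood at 6.16 log2 CPM, against 6.74 to 6.93, and Comp, also a tendon marker, at 1.36, against 2.004 to 2.264. These were 3 of 92 groups examined by the gap to the nearest library over the range of the group (above 0.71), and chance flags about 1 in 20 groups. The NR4A genes were not among them. In WT replicate 5, Nr4a3 was 0.28 and Nr4a1 0.28 log2 units below the mean of its label, and the part of this library's tendon and myoglobin RNA in those values was not tested.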

How the results depend on the processing

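On the log2(CPM + 1) scale the Nr4a2 difference was 0.29 in place of 0.50, and within litters Nr4a1 was 0.21 in litter 110, Nr4a2 was 0.44 in litter 108 and Nr4a3 was 1.62 in litter 110, each farther from the main value than the SD among libraries. Without 1 library, and with genotype and litter alone in the fit, the differences ran from 0.37 to 0.59 for Nr4a1, from 0.47 to 0.53 for Nr4a2 and from 2.15 to 2.75 for Nr4a3. Leaving out KO replicate 3 or WT replicate 1 takes the whole of its litter out of the difference. None of these alternatives reversed an NR4A direction. The count of genes past the threshold, 41 in the main fit, was 1054 with genotype and litter alone, 2608 with genotype alone, 1 without a trend and 127 with the replicate number as a block in place of both litter and the 3 removed terms; the fits on genotype and litter or genotype alone count more residual degrees of freedom than the values hold. It ran from 1 (without WT replicate 6) to 54 (without WT replicate 4) with 1 library left out, and was 5 without WT replicate 1. Among the list genes other than the receptors it was 3, against 35 with genotype and litter alone and 0 to 7 with 1 library left out, 0 without WT replicates 1 or 6. Whether replicate numbers pair the samples could not be told, because with litter removed the deviations cancel out within each litter. Of 4 shared numbers, 1 had a correlation of deviations above 0.1 (range -0.85 to 0.45). No library labelled KO was most like the WT library of its own number. The replicate block left the differences at 0.54 for Nr4a1, 0.48 for Nr4a2 and 2.42 for Nr4a3. In fits that left out 1 library and kept the 3 removed terms, the estimates of 10 marker genes changed sign. None of these genes was past the threshold over all libraries. It happened in 16 cases, spread over 5 of the 10 fits. Such a change need not be a reversal between the means of the libraries left, and the cause of each was not tested. The limma adjusted p of these genes ranged from 0.445 to 0.988 for Myh1, 0.655 to 0.992 for Pecam1, 0.545 to 0.988 for Adgre1, 0.758 to 0.994 for Ptprc, 0.260 to 0.988 for Col1a2, 0.121 to 0.997 for Pmp22, 0.446 to 0.988 for Chodl, 0.0104 to 0.988 for Fmod, 0.112 to 0.988 for Comp and 0.281 to 0.988 for Hbb-bs. The unknown depth leaves counting error at the level of Nr4a2 unstated.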
